A study of Oryza sativa Japonica Group with 3 samples.

Results

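The 41 loci described here were listed as nuclear rice genes for light-harvesting proteins, photosystem subunits, the Rubisco small subunit and Rubisco activase, the Calvin cycle and chlorophyll synthesis. They were chosen by locus ID from what they are held to encode, and all 41 were found among the 55986 loci measured. No table used here pairs a single ID with a gene name, so each locus is given by its ID, and which of these functions it has is not stated. The choice of the 41 was made with earlier results of these data known and could not be checked against an annotation.

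Seeds came from Jiucaiqing, a japonica rice landrace, and poly(A)-enriched RNA was sequenced from the dry seed (0 h), the imbibed seed (24 h) and the germinated seed (48 h), which the labels place in distilled water at 30 ± 1 °C. Each time point was 1 library that combined 3 biological replicates, so there is no replicate error, no SD and no p-value, and each difference below is one between libraries. Whether the growth chamber was lit is not given in the labels. Levels are FPKM, which corrects fragment counts for transcript length and for the size of the library, summed over the isoforms of a locus. Where 3 values follow each other, they stand in time order, dry, imbibed and germinated seed. Read totals are unknown. The seed was sampled whole, so more cells of a type and more RNA per cell cannot be told apart. The tissue label could not be checked against marker genes, because IDs are not paired with names.

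Light-harvesting proteins hold chlorophyll and pass excitation energy to photosystems I and II, which drive electron transport through the thylakoid membrane. The ATP and NADPH made there feed the Calvin cycle, where Rubisco, built from plastid-encoded large and nuclear-encoded small subunits and kept active by Rubisco activase, fixes CO2. Chlorophyll is built from protoporphyrin, into which magnesium chelatase inserts magnesium, and in flowering plants a later step, the reduction of protochlorophyllide, needs light. A germinating cereal seed lives on its stored reserves, and photosynthesis begins once the shoot greens.

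The transcripts of these loci were scarce in the dry and the imbibed seed and more abundant in the germinated seed. Their summed level was 149 FPKM in the dry, 81.7 FPKM in the imbibed and 678 FPKM in the germinated seed, so the sum at 48 h was 8.29 times that at 24 h and 4.55 times that at 0 h. As a share of the summed FPKM of all loci this was 0.0169%, 0.0141% and 0.127%. The share at 48 h was thus the highest and that at 24 h the lowest. The median member was at 0.51, 0.42 and 12.2 FPKM in time order. Over the 20915 loci that reached 1 FPKM in any library, the medians were 4.09, 4.67 and 5.10 FPKM. Most members therefore lay below the middle of the measured loci until 24 h and above it at 48 h: 9 of 41 were above the median at 0 h, 2 at 24 h and 32 at 48 h. A single locus, LOC_Os09g00999, took 5.65%, 10.7% and 20.4% of the summed FPKM at 0, 24 and 48 h, and without it the members' share was 0.0179%, 0.0158% and 0.159%.

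**Figure D1:**
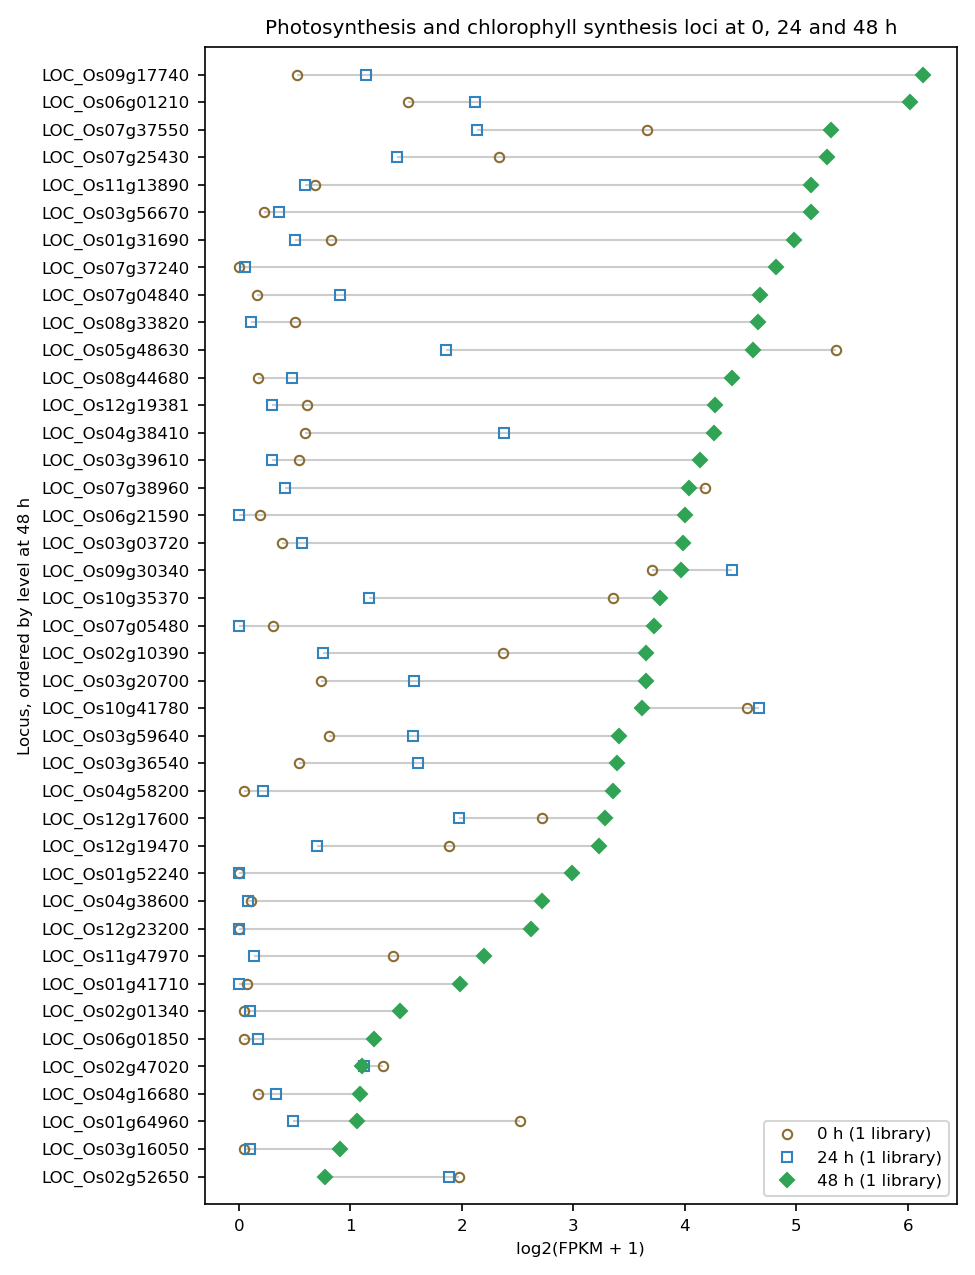
Level of each of the 41 loci in the 3 libraries, as log2(FPKM + 1) on the x axis, with 1 row per locus ordered by its level at 48 h. Open circles are the dry seed, open squares 24 h and filled diamonds 48 h, and grey lines span the range. In 34 of the 41 rows the diamond lies furthest to the right.

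No member was at 50 FPKM or more in the dry seed or at 24 h, and 2, or 4.88%, were at 48 h. Of all 20915 loci, 8.71%, 7.41% and 5.90% were at that level in time order. Members at 10 FPKM or more numbered 5 at 0 h, 2 at 24 h and 24 at 48 h, or 12.2%, 4.88% and 58.5%. The shares of all loci at 10 FPKM or more were 31.2%, 32.2% and 31.3%. The highest single levels were 39.95, 24.4 and 69.2 FPKM in time order, each in a different locus. Levels were also spread more evenly among members at 48 h. The 2 highest members held 42.0% of the members' sum at 0 h and 54.9% at 24 h, but 19.7% at 48 h. Without the 2 highest of each library, a comparison added after seeing the data, the sums were 86.3, 36.9 and 544 FPKM. Across the 41 members, the Spearman correlation of levels was 0.75 between 0 h and 24 h, 0.28 between 24 h and 48 h and 0.20 between 0 h and 48 h. Over all 20915 loci the same 3 values were 0.77, 0.82 and 0.57. Loci are not independent replicates, and each pair of values shares its libraries.

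Differences between libraries were taken on log2(FPKM + 1), where a locus counted as higher or lower from 2-fold on. That scale understates the difference of loci below a few FPKM. Of the 41 members, 40 reached 1 FPKM in some library, 20 of them at 48 h alone, and LOC_Os03g16050 did not. Members that reached it at 48 h alone had to lie higher there, so the counts below run over all 41.

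The comparison of 24 h with 0 h covers the first day in water. Only 2 of the 41 members, or 4.88%, were at least 2-fold higher at 24 h, beside 17.7% of all 20915 loci. None was 8-fold higher or peaked at 24 h by 2-fold over both other libraries, beside 2.03% and 2.60% of all loci. Another 8 members, or 19.5%, were at least 2-fold lower, beside 15.4% of all loci, and 31 stayed within 2-fold. The share of higher members was thus below the background. However, the 21 members under 1 FPKM at both 0 h and 24 h could not reach 2-fold on this scale. Among all 20915 loci, 2101 were under 1 FPKM in both libraries, so the 2 shares do not compare like with like. A locus under 1 FPKM in the dry seed cannot be 2-fold lower on this scale, and 26 of the 41 were under it. Of the 7 members at 5 FPKM or more in the dry seed, 4 were lower at 24 h, beside 26.4% of all loci at that dry-seed level, and none was higher, beside 9.98%. Of the 8 members from 1 to 5 FPKM, 4 were lower, beside 10.2% of all loci at that level, and none was higher, beside 18.3%. The median difference of members was -0.03 (log2), beside 0.06 for all loci. When libraries were rescaled to the same summed FPKM, the median of all loci moved to 0.45, 6 members were higher and 6 lower, beside 28.3% and 8.10% of all loci, and the members' median turned to 0.06. The same rescaling moved the median of all loci from 0.02 to 0.14 for 48 h against 24 h and from 0.18 to 0.75 for 48 h against 0 h. With a pseudocount of 0.1 FPKM, 8 members were higher and 12 lower at 24 h, beside 26.6% and 20.6% of all loci.

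The comparison of 48 h with 24 h covers the second day, in which the imbibed seed germinated. At 48 h, 34 of 41 members, or 82.9%, were at least 2-fold higher, beside 13.8% of all loci. Those at least 8-fold higher numbered 18, or 43.9%, beside 0.851% of all loci. Only 2 members, or 4.88%, were at least 2-fold lower, beside 10.9% of all loci. The median difference of members was 2.75 (log2), with quartiles of 1.78 and 3.85, beside a median of 0.02 with quartiles of -0.51 and 0.61 for all loci. Across the 9 alternative settings with the 2-fold rule, the count of higher members ranged from 29 to 37, beside 4.52% to 20.6% of all loci. Among these settings, the filter of 5 FPKM keeps fewer members.

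From the dry to the germinated seed, 29 of 41 members, or 70.7%, were at least 2-fold higher at 48 h, beside 27.5% of all loci. Lower members numbered 2, or 4.88%, beside 20.4% of all loci. The median difference was 2.62 (log2) for members and 0.18 for all loci. Rescaled to the same summed FPKM, 34 members were higher and 0 lower, beside 41.4% and 11.7% of all loci. All 29 higher members were also at least 2-fold higher at 48 h than at 24 h, so they peaked at 48 h, a course shared by 11.0% of all loci. The other 5 members that were higher at 48 h than at 24 h stayed within 2-fold of their dry-seed level in the values as deposited. Comparisons that share a library are not independent of each other.

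**Figure D2:**
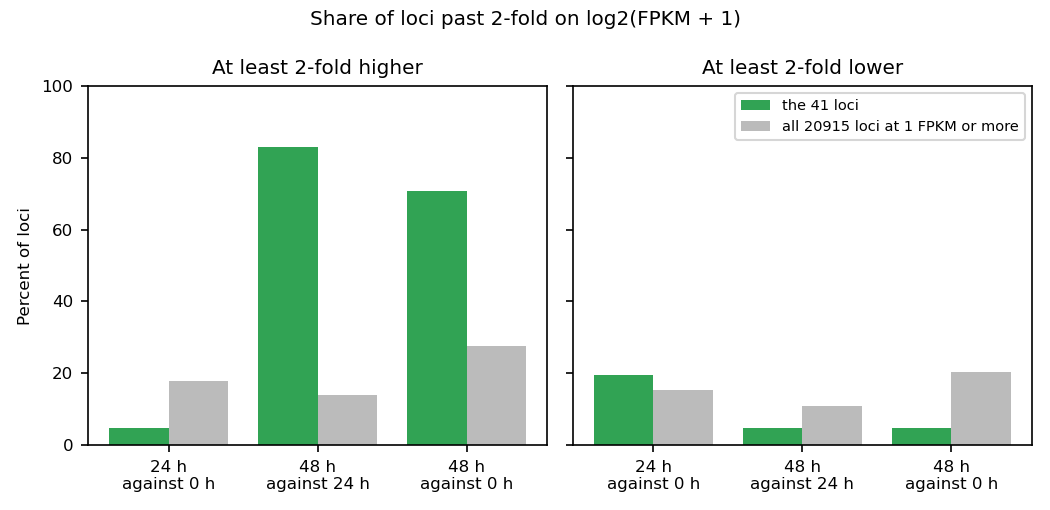
Percent of the 41 loci (green) and of all 20915 loci that reached 1 FPKM (grey) that were at least 2-fold higher (left) or lower (right) on log2(FPKM + 1) in each comparison. Higher loci make up 82.9% of the 41 for the second day and 4.88% for the first.

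Members fell into 4 courses, which were drawn up after the values were seen. In the first, 21 members stayed under 1 FPKM at both 0 h and 24 h. Together they summed to 4.27, 4.28 and 307 FPKM in time order, the last being 45.3% of the members' sum at 48 h. At 48 h they ranged from 0.87 to 34.1 FPKM with a median of 14.8 FPKM. Of the 21, 16 were at 5 FPKM or more at 48 h and 7 at 20 FPKM or more. Among all 37172 loci under 1 FPKM at 0 h and 24 h, 0.713% reached 5 FPKM at 48 h and 0.0968% reached 20 FPKM. That larger set includes loci that may never be transcribed, and no gene class was taken out of it.

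The highest of these 21 at 48 h was LOC_Os11g13890 on chromosome 11. Its level was 0.61 FPKM in the dry, 0.51 FPKM in the imbibed and 34.1 FPKM in the germinated seed, and the second day differed by 4.54 (log2). LOC_Os03g56670 on chromosome 3 was at 0.17, 0.28 and 34.0 FPKM in the same order, a second-day difference of 4.77. Both were near the floor of the measurement until 24 h and among the 10 highest members at 48 h.

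LOC_Os01g31690 was at 0.77, 0.42 and 30.5 FPKM in time order. LOC_Os07g37240 was listed at 0 in the dry seed, then at 0.04 and 27.1 FPKM. LOC_Os07g04840 was at 0.12, 0.87 and 24.5 FPKM, the highest 24 h level of the 21. For these 3 loci the difference was larger for the second day, at 4.47, 4.76 and 3.77 (log2), than for the first, at -0.32, 0.06 and 0.74. With a pseudocount of 0.1 FPKM, LOC_Os07g04840 differed by 2.14 on the first day and 4.67 on the second. LOC_Os08g33820 was at 0.42, 0.08 and 24.2 FPKM. LOC_Os08g44680 was at 0.13, 0.39 and 20.5 FPKM. Their log2 differences for the second day were 4.54 and 3.95, in the range of the 5 loci before them.

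A further 9 of the 21 lay between 5 and 20 FPKM at 48 h. They were LOC_Os12g19381 (18.3 FPKM), LOC_Os03g39610 (16.6 FPKM), LOC_Os06g21590 (15.0 FPKM), LOC_Os03g03720 (14.8 FPKM), LOC_Os07g05480 (12.2 FPKM), LOC_Os04g58200 (9.25 FPKM), LOC_Os01g52240 (6.94 FPKM), LOC_Os04g38600 (5.59 FPKM) and LOC_Os12g23200 (5.15 FPKM). LOC_Os01g52240 and LOC_Os12g23200 were listed at 0 in both earlier libraries, so no fold is given for them. In all, 3 members were listed at 0 at 0 h, 5 at 24 h and none at 48 h, and a listed 0 can be a failed estimate.

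The lowest 5 of the 21 stayed low at 48 h as well. LOC_Os01g41710 reached 2.96 FPKM, LOC_Os02g01340 1.73 FPKM, LOC_Os06g01850 1.31 FPKM, LOC_Os04g16680 1.13 FPKM and LOC_Os03g16050 0.87 FPKM. The last 2 were within 2-fold at every step on this scale, with differences of 0.76 and 0.81 (log2) for the second day. They moved in the same direction as the other 19, which were all past 2-fold at that step.

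**Figure D3:**
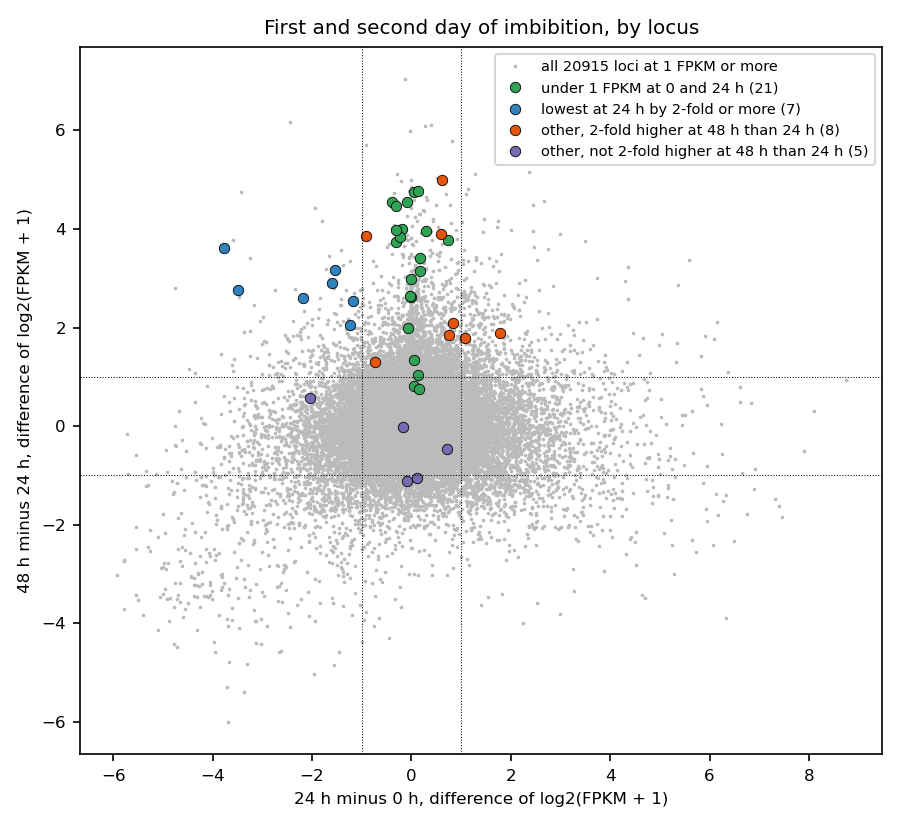
Difference of log2(FPKM + 1) between 24 h and 0 h (x axis) and between 48 h and 24 h (y axis), with 1 point per locus; grey points are all 20915 loci and coloured points the 41 members by course. Dotted lines mark 2-fold. Both axes share the 24 h library, so scatter at 24 h moves a point along both. The 21 members under 1 FPKM until 24 h lie within 2-fold on the x axis, and the 7 that were lowest at 24 h lie at the upper left. Both placements follow from how the courses were drawn up.

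In the second course, 7 members had transcript in the dry seed, less at 24 h, and more again at 48 h, by at least 2-fold at both steps. That was 17.1% of the 41, beside 1.24% of all loci. The 7 summed to 86.5, 9.01 and 114 FPKM in time order, and they held 58.1% of the members' sum in the dry seed. The size of the dip varied widely among them. The count of 7 was 12 with a pseudocount of 0.1 FPKM, 3 with one of 5 FPKM, 5 with libraries rescaled to the same sum and 4 when LOC_Os09g00999 was left out of that sum. The share of all loci with this course was not taken in those settings, so these counts have no background. Since both steps share the 24 h library, a low value in that library alone would give this course.

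LOC_Os05g48630 on chromosome 5 was the most abundant member of the dry seed, with 39.95 FPKM there, 2.62 FPKM in the imbibed and 23.4 FPKM in the germinated seed. Its log2 differences were -3.50 for the first day and 2.75 for the second. LOC_Os07g38960 on chromosome 7 went from 17.2 FPKM to 0.33 FPKM and back to 15.4 FPKM. This was the largest difference of any member for the first day, -3.77 (log2), and it was followed by 3.62 for the second. Both lay within 2-fold of their dry-seed level at 48 h, with log2 differences of -0.75 and -0.15 as deposited. The direction depended on scaling: rescaled to the same sum the values were -0.05 and 0.53, and without LOC_Os09g00999 in that sum 0.19 and 0.76.

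LOC_Os10g35370 on chromosome 10 was at 9.22, 1.25 and 12.7 FPKM in time order, with log2 differences of -2.18 and 2.61. LOC_Os11g47970 was at 1.60, 0.10 and 3.58 FPKM. As deposited, both lay within 2-fold between 0 h and 48 h, at 0.42 and 0.82 (log2), but rescaled to the same sum they were past it, at 1.08 and 1.30. With a pseudocount of 0.1 FPKM, LOC_Os11g47970 also passed 2-fold, at 1.11. LOC_Os07g37550 was at 11.7, 3.39 and 38.6 FPKM. LOC_Os07g37550 was at least 2-fold above its dry-seed level at 48 h, with a log2 difference of 1.64. LOC_Os02g10390 (4.15, 0.69 and 11.6 FPKM) and LOC_Os12g19470 (2.70, 0.63 and 8.40 FPKM) also ended at least 2-fold above their dry-seed level, by 1.29 and 1.35 (log2). With a pseudocount of 5 FPKM those 2 values were 0.86 and 0.80, under 2-fold, while that of LOC_Os07g37550 stayed above it.

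The third course holds 8 members outside the second course. They reached 1 FPKM at 0 h or 24 h and were at least 2-fold higher at 48 h than at 24 h. Their sum was 14.3, 19.3 and 228 FPKM in time order. The highest members of all at 48 h were in this group. LOC_Os09g17740 on chromosome 9 was at 0.44, 1.20 and 69.2 FPKM, the largest member difference both for the second day (4.995, log2) and from dry to germinated seed (5.61). LOC_Os06g01210 on chromosome 6 was at 1.86, 3.35 and 64.0 FPKM, with a second-day difference of 3.90 (log2). At 48 h these loci lay above 95.9% and 95.5% of the 20915 loci, against 13.5% and 33.9% in the dry seed.

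LOC_Os07g25430 was at 4.03, 1.68 and 37.7 FPKM, with log2 differences of -0.91 and 3.85 for both days in turn. LOC_Os12g17600 was at 5.58, 2.94 and 8.74 FPKM, within 2-fold between 0 h and 48 h as deposited. The other 4 of this course are described together because their first-day differences were 0.75 (log2) or more, a choice made after their values were seen. LOC_Os04g38410 was at 0.51, 4.19 and 18.2 FPKM, with log2 differences of 1.78 and 1.89 for both days in turn. It and LOC_Os03g36540 were the 2 members at least 2-fold higher at each step, and the share of all loci with that course was not taken. Members higher on the first day numbered 0 with a pseudocount of 5 FPKM and 8 with one of 0.1 FPKM.

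LOC_Os03g36540 was at 0.45, 2.05 and 9.46 FPKM. LOC_Os03g20700 was at 0.67, 1.97 and 11.6 FPKM, and LOC_Os03g59640 at 0.75, 1.95 and 9.59 FPKM. These 3 loci, all on chromosome 3, had similar levels to each other in every library, but they were grouped after their values were seen. Their first-day log2 differences of 1.07, 0.83 and 0.75 lie on either side of the 2-fold line. Other members on chromosome 3 differed from them at 48 h, such as LOC_Os03g56670 (34.0 FPKM) and LOC_Os03g16050 (0.87 FPKM).

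The fourth course holds 5 members that reached 1 FPKM at 0 h or 24 h, were not lowest at 24 h by 2-fold, and were not at least 2-fold higher at 48 h than at 24 h. They made up 60.1% of the members' sum at 24 h and 4.24% at 48 h. LOC_Os10g41780 on chromosome 10 was the highest member at 24 h, with 22.6, 24.4 and 11.2 FPKM in time order. Its log2 difference for the second day was -1.05, just past 2-fold, and ranged from -0.80 to -0.97 under all 4 rescalings. LOC_Os09g30340 on chromosome 9 was at 12.1, 20.4 and 14.6 FPKM and stayed within 2-fold at both steps. Rescaled to the same sum, its first-day log2 difference was 1.27 in place of 0.71. Those 2 loci were the only members at 5 FPKM or more at 24 h, or 4.88%, beside 48.4% of all loci.

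LOC_Os01g64960 on chromosome 1 was at 4.73, 0.40 and 1.09 FPKM in time order. It was the only member with a dry-seed peak of 2-fold or more over both other libraries, a course found in 12.3% of all loci. LOC_Os02g52650 on chromosome 2 was at 2.93, 2.70 and 0.71 FPKM, the lowest member at 48 h. Their log2 differences between 48 h and 0 h were -1.46 and -1.20, or -0.96 and -0.77 when rescaled to the same sum. LOC_Os02g47020 was at 1.45, 1.18 and 1.15 FPKM and thus nearly level.

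**Figure D4:**
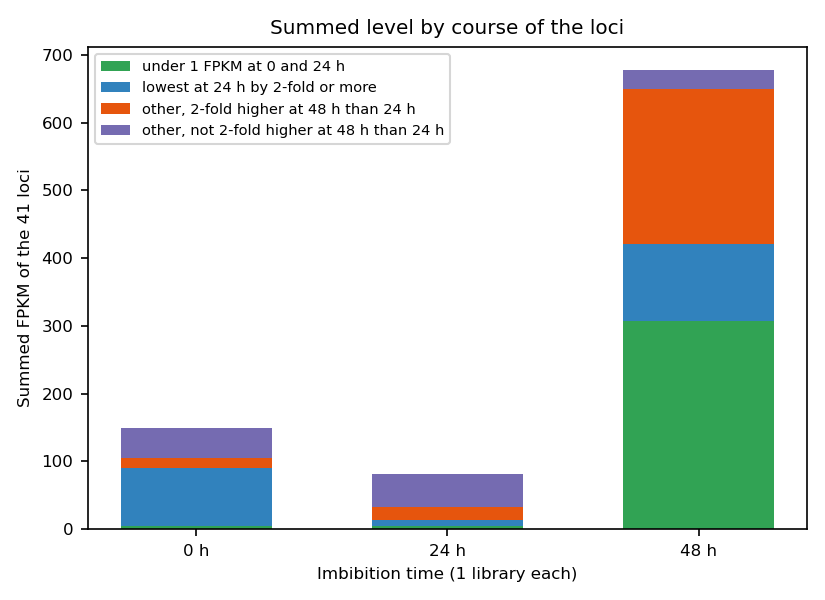
Summed FPKM of the 41 loci in each library (y axis, 1 library per bar), stacked by course. The bars reach 149, 81.7 and 678 FPKM; the 7 loci lowest at 24 h make up 58.1% of the first, and the 21 loci under 1 FPKM until 24 h make up 45.3% of the last.

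Dry-seed level and later course can be read together. The 7 members at 5 FPKM or more in the dry seed had a median log2 difference of 0.25 between 48 h and 0 h, with 1 higher and none lower by 2-fold. Among all 9552 loci at that dry-seed level, the median was -0.55, 10.1% were higher and 36.4% lower. The 8 members from 1 to 5 FPKM had a median of 1.05, with 4 higher and 2 lower. All 6782 loci at that level had a median of 0.21, with 24.4% higher and 11.6% lower. The 26 members under 1 FPKM had a median of 3.50, and 24 of them were higher. Among the 4581 loci under 1 FPKM in the dry seed that reached 1 FPKM later, the median was 1.38 and 68.6% were higher, but these loci were kept because they were higher later.

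The members lie on all 12 chromosomes by their IDs, with 7 on chromosome 3, 6 on chromosome 7 and 1 on chromosome 5. LOC_Os12g19381 and LOC_Os12g19470 have nearby IDs on chromosome 12 and differed in course. LOC_Os12g19381 was at 0.53, 0.23 and 18.3 FPKM, and LOC_Os12g19470 had more in the dry seed (2.70 FPKM) and less at 48 h (8.40 FPKM). Where members of a gene family are near-identical, the split of shared reads between them is an estimate, and which members this touches was not tested.

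Of the 41 members, 21 have 2 or more listed isoforms. In 19 of these 21, a single isoform held at least 90% of the locus at 48 h. The exceptions were LOC_Os02g01340, with 67.6% in its second isoform and 32.4% in its first, and LOC_Os03g03720, with 74.0% and 26.0% in its first and second. The most abundant isoform differed between libraries in 3 members. LOC_Os11g13890.1 held 98.3% of its locus at 48 h and was listed at 0 in the dry seed. LOC_Os03g56670.1 was at 33.7 FPKM at 48 h and listed at 0 in both earlier libraries, where LOC_Os03g56670.2 was at 0.17 and 0.28 FPKM. LOC_Os02g10390.1 was at 4.15 FPKM in the dry and 11.6 FPKM in the germinated seed and listed at 0 in between, while LOC_Os02g10390.2 was listed above 0 at 24 h alone, with 0.69 FPKM. In each of these cases the earlier or middle library held under 1 FPKM for the locus.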

How the data were processed

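The authors deposited FPKM values to 2 decimals, 1 per isoform and library, from tables of isoform results per the file headers. The submitters' processing notes list the tools RSEM 1.1.11, FastQC and edgeR 2.3.52 but not what each did. The build, the annotation and whether libraries were scaled to each other were not given in the sources used here. FPKM divides by the library's total, so abundant transcripts lower all others.

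Isoforms (66338) were summed per locus (55986). The 20915 loci that reached 1 FPKM in any library form the background. Members and lists were chosen with earlier results of these data known. Printed in full were members at 20 FPKM or more in a library, the 5 highest and 5 lowest differences between 48 h and 0 h, and members 2-fold lower in a comparison, 22 in all. The other 19 are named beside their group, some also with their levels in all 3 libraries. Alternative values of single members were taken for the 22 alone. Alternatives were pseudocounts of 0.1 and 5 FPKM, filters, a 4-fold rule, 4 rescalings and the main isoform alone. None of the 41 IDs matched the 39387 genes of the reference table, so other pathway genes, names, coordinates and sequences are not reported. Read totals could not be recovered from low values by a method tested on simulated data, so depth is unknown and no interval is given. Python 3.11.15, numpy 2.4.6, pandas 2.3.3 and matplotlib 3.10.9 were used.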

Additional observations from a re-analysis of the deposited data

How the results depend on the processing

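No paired analysis was possible because the design has a single pooled library for each stage, and no replicate could be left out. Of 100 alternative counts of members, 70 stayed within 1.5 times the value reported. These include the counts with no filter, which could not change because members were counted without the filter. The 22 members chosen by rule for printing in full had 462 alternative values. None that was past 2-fold as reported changed sign, 25 fell under 2-fold and 17 others went past it. The cause of these changes was not tested. Members lowest at 24 h by 2-fold, an item added after seeing the data, numbered 12 and 3 with pseudocounts of 0.1 and 5 FPKM, 3 at 4-fold and 4 with the same sum without LOC_Os09g00999. For this item and for peaks, the share of all loci was taken in the values as deposited alone. Values follow in the order 24 h against 0 h, 48 h against 24 h and 48 h against 0 h, and sums in the order 0, 24 and 48 h. With a pseudocount of 0.1 FPKM the medians were -0.11, 4.22 and 4.12, beside 0.09, 0.03 and 0.22 for all loci. In that setting 8 members were higher at 24 h than at 0 h, beside 26.6% of all loci. With 5 FPKM the medians were -0.0057, 1.47 and 1.34, beside 0.02, 0.01 and 0.09 for all loci. Members higher in the first comparison numbered 0, beside 8.11% of all loci. Members lower numbered 3, 0 and 0, beside 8.41%, 5.49% and 12.6%, and 0 peaked in the dry seed. The filter of 5 FPKM, which keeps fewer members, gave medians of -0.0135, 3.29 and 3.15, beside 0.05, -0.12 and 0.01 for all loci. It gave 1 and 0 members lower in the last 2 comparisons, beside 15.7% and 26.4% of all loci. With it, 0 peaked in the dry seed and sums were 138, 76.8 and 663 FPKM. At 4-fold, 0 members were higher in the first comparison, beside 5.76% of all loci. Lower members numbered 4, 0 and 0, beside 4.53%, 1.98% and 7.69%, and 0 peaked in the dry seed. The same sum per library gave medians of 0.0647, 2.91 and 3.04, beside 0.45, 0.14 and 0.75 for all loci. It gave 6 members higher in the first comparison, beside 28.3% of all loci. Lower members in the last 2 numbered 1 and 0, beside 9.44% and 11.7%. At the same sum, 0 peaked in the dry seed and sums were 112, 93.7 and 843 FPKM. Without LOC_Os09g00999 in that sum, the medians were 0.0644, 3.07 and 3.22, beside 0.49, 0.28 and 0.93 for all loci. In the first comparison 6 members were higher and 5 lower, beside 29.3% and 7.35% of all loci. Lower members in the last 2 numbered 1 and 0, beside 7.38% and 9.54%. In this setting, 0 peaked in the dry seed, and sums were 106, 93.3 and 941 FPKM. Median-of-ratios factors gave medians of 2.83 and 2.67 in the last 2 comparisons, beside 0.10 and 0.25 for all loci. They gave 1 member lower at 48 h than at 24 h, beside 9.31% of all loci, and sums of 147, 79.8 and 706 FPKM. The trimmed mean of log ratios gave 2.83 and 2.67, beside 0.10 and 0.25. It gave 1 member lower at 48 h than at 24 h, beside 9.32%, and sums of 146, 79.7 and 705 FPKM. The main isoform alone gave medians of 0.0, 2.72 and 2.61, beside 0.0683, 0.0025 and 0.1756 for all loci. It gave 1 member higher in the first comparison, beside 18.8% of all loci, and sums of 144, 79.1 and 668 FPKM. Without the 2 highest members of each library, chosen after seeing the data, sums were 86.3, 36.9 and 544 FPKM. Without read totals, the counting error of values under 1 FPKM cannot be given.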
